A study of Mus musculus with 83 samples.

Results

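Mir743b, Mir463, Mir878, Mir881, Mir871, Mir470 and Mir465 are microRNA (miRNA) genes of one cluster on the mouse X chromosome. They were picked by name, and the names came from measured values. These were the early response to loss of DNMT1 across days, the level in AGO2 immunoprecipitates and the level in primordial germ cells (PGCs). Values of day 3, of AGO2 immunoprecipitates and of PGCs are given below as a description, without a test. Tests of the other days draw on the values behind the choice and are no independent evidence for it. The 7 genes were 7 of the 32101 features in the deposited table and 7 of its 1577 miRNA features.

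A miRNA gene is transcribed as a longer precursor whose hairpin is cut by DROSHA and then by DICER, and one strand of the resulting duplex is loaded into an Argonaute protein such as AGO2. The loaded strand pairs with messenger RNAs mainly through its seed, bases 2 to 8 counted from the 5′ end, and represses them. This X-linked cluster lies between Slitrk2 and Fmr1 and is known for its abundance in testis and germ cells. DNMT1 is the maintenance methyltransferase that copies DNA methylation onto the new strand at replication, so that dividing cells without it lose methylation, and PGCs go through a genome-wide loss of methylation in the embryo.

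The study sequenced small RNA from mouse embryonic stem cells (ESCs) carrying a conditional Dnmt1 allele, in which Cre recombination was induced with tamoxifen. The time course had 3 control and 3 Dnmt1 KO libraries at each of days 1, 3, 6, 9, 11 and 25. AGO2 immunoprecipitates had 4 control and 4 Dnmt1 KO libraries, which the study's methods place at day 9, and 1 further library of each genotype was labelled none. PGCs sorted for Oct4-GFP from C57BL/6J embryos gave 1 library each for females and males at the embryonic stages E13.5 and E14.5. The labels gave the strain of the ESCs as E14, whereas the methods name a Dnmt1 loxP/loxP line of strain C57BL/6. All ESC groups, controls included, carried the floxed allele as far as the methods state, came from 1 line and were grown in serum and LIF with or without feeder fibroblasts. The methods do not say whether controls received tamoxifen. Effects of tamoxifen and of Cre therefore cannot be told apart from loss of DNMT1 in these groups. Nothing in the labels said whether replicates were separate cultures, so p-values measure the spread between libraries. A second set of 30 time course and 3 PGC libraries carried the suffix R1 in their titles, and was used as an alternative. Its day 11 libraries other than Dnmt1 KO were titled WT in place of control, and were taken as controls. The titles do not say whether WT and control are the same cells.

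RPM, the reads of a feature scaled to the total of its library, was taken as RPKM multiplied by the length of the feature in kb, and reads were read back from the steps of the RPKM values. Total reads over all features were 870481 to 6239008 per library for days 1 to 11, 521066 to 815523 for day 25, 11497724 to 25422978 for AGO2 controls, 1152390 to 11520126 for AGO2 Dnmt1 KO libraries and 1734576 to 3435993 for PGCs. The 2 libraries labelled none held 57155 and 9830 reads. Some libraries stood apart. Dnmt1 KO replicate 1 of day 3 differed from the other two of its group by a chi-square per degree of freedom of 27.6 and 32.4, against 2.43 between those. The same measure was 171 to 848 between AGO2 controls. Between AGO2 Dnmt1 KO libraries it was 46.9 for 1 and 2 and 131 to 304 for the other pairs. The part of depth in these values was not tested. In the time course libraries of the R1 set 97.9% to 99.0% of features with low values had an even number of reads, against 38.3% to 45.6% without the suffix at days 1 to 11, and 21 of 30 time course libraries were most like their namesake. The R1 library titled E14.5 male correlated better with the E13.5 male (r = 0.993) than with its namesake (r = 0.984), against its label. The R1 libraries of E13.5 females and males held 114631 and 60317 reads. For the AGO2, none and R1 libraries of days 1 to 9 the genotype tag went against the title, and the title was used. PGC libraries carried the cell type tag ESC. All 12 miRNAs of an ESC list (the miR-290 and miR-302 families) were detected in every group of time course and AGO2 libraries, and their summed level was 110800 to 209800 RPM in the time course against 12190 to 24380 RPM in PGCs. The genotypes did not overlap in this sum on any day. Dnmt1 KO libraries were higher at days 1, 3 and 6 and lower at days 9, 11 and 25. At day 1 they held 128600 to 133100 RPM against 116800 to 124000 RPM in controls, and at day 25 136700 to 141600 against 176200 to 209800 RPM. The deleted gene itself could not check the labels. Reads on Dnmt1 in these small RNA libraries averaged 21.1 to 57.4 RPM in Dnmt1 KO and 29.6 to 73.8 RPM in control groups of the time course, and such reads do not measure its messenger RNA.

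All 7 genes lie on the minus strand within X:64030431-64092300 of the NCBIM37 assembly, a span of 61870 bp. From the low to the high coordinate they are Mir743b (X:64030431-64030507), Mir463 (X:64052398-64052472), Mir878 (X:64054683-64054760), Mir881 (X:64055119-64055196), Mir871 (X:64063603-64063679), Mir470 (X:64067126-64067200) and Mir465 (X:64092227-64092300). Each is annotated as a miRNA gene in GENCODE vM1, and no coding gene overlaps the span. Slitrk2 ends 115.863 kb before it and Fmr1 begins 1839.416 kb after it. The window of 100 kb to either side held 11 other miRNA features. The span is poor in CpG, the dinucleotide that DNMT1 methylates, with 4.57 CpG per kb against 5.92 over chromosome X, and 6 of the 7 hairpins hold no CpG. Methylation was not measured in the libraries used here.

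The mature sequences below come from RefSeq (GRCm38.p6) and show what each gene can deliver to AGO2. Capitals mark the seed. The table counted reads per gene and did not separate the 5p from the 3p arm, so that both are given for the 2 most abundant genes and the 3p arm for the others.
miR-871-5p: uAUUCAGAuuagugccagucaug
miR-871-3p: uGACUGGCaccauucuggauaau
miR-470-5p: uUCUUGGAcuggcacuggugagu
miR-470-3p: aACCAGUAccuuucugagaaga
miR-881-3p: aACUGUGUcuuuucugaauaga
miR-463-3p: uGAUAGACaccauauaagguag
miR-878-3p: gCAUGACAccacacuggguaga
miR-743b-3p: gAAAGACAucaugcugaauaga
miR-465a-3p: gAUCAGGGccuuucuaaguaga

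No seed was shared between 2 of the 7 genes, over all 14 mature sequences, so that they form a genomic cluster and not a seed family. Seeds were shared with neighbours in the window that were no members. The seed of miR-743b-3p is that of miR-743a-3p, and the seed of miR-871-5p is that of miR-743a-5p.
miR-743a-3p: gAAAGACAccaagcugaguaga
miR-743a-5p: uAUUCAGAuuggugccugucau
The sequence of miR-465a-3p is identical to those of miR-465b-3p and miR-465c-3p and has 5 exact copies in the genome, all in the span. Reads of its 3p arm can therefore not be assigned to 1 of these copies. miR-465a-5p has 1 exact copy, whereas miR-465b-5p and miR-465c-5p have 2 each. The features Mir465b-1, Mir465b-2, Mir465c-1 and Mir465c-2 were at 0 in every library, and the part of mapping in these 0 values was not tested. The ending UAGA, visible in miR-881-3p, miR-878-3p, miR-743b-3p and miR-465a-3p, was found in 4 of the 14 mature sequences of the 7 genes, or 28.6%. It was not particular to the 7 genes, since it was found in 9 of the 32 mature sequences of the 18 miRNA features in the window, among them miR-743a-3p, and in 14 of 1679 mouse mature sequences.

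In control ESCs the cluster was present at a low level. In such bulk libraries, fewer cells of a type and less RNA per cell cannot be told apart. The summed level of the 7 genes averaged 71.5 to 145.3 RPM over days 1 to 11 and 30.5 RPM at day 25. It took at most 0.0268% of miRNA reads in any control library without the suffix R1. On the scale of RPKM, which accounts for the feature's length (74 to 78 bases), Mir871 ranked first and Mir470 second in every control group, with Mir871 alone taking 43.8% to 63.4% of the summed RPM. Mir871 averaged 39.9 ± 7.59 RPM (SD, n = 3) and Mir470 30.7 ± 6.28 RPM at day 1. Mir881, Mir878 and Mir463 averaged 6.92, 3.62 and 3.02 RPM there, and Mir743b and Mir465 2.37 and 2.28 RPM, from 1 to 7 reads per library. By RPKM the libraries of Mir871 and Mir470 overlapped, as did those of Mir878, Mir463, Mir465 and Mir743b with the next in order, whereas Mir881 lay above Mir878 and below Mir470 in each library.

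At day 1 after deletion none of the 7 genes passed the test. Control libraries of Mir871 read 31.98, 40.73 and 47.1 RPM, and Dnmt1 KO libraries 55.25, 53.33 and 48.84 RPM, without overlap but with a gap smaller than the spread within either group. Mir878 did not overlap either, with 3.446 to 3.876 RPM in controls, from 3 to 8 reads, and 4.824 to 6.106 RPM in Dnmt1 KO libraries, from 9 to 18 reads. Mir470 read 24.22, 30.99 and 36.76 RPM in controls and 27.29, 34.84 and 42.06 RPM in Dnmt1 KO libraries, and the groups overlapped. The limma test across all features called 0 of 7 genes higher, where 2.87% of all 2582 features and 2.06% of the 291 miRNA features were called higher. At an unadjusted p under 0.05 there was 1 gene, Mir463, with a log2 difference of 0.68 ± 0.28 (SE) and an adjusted p of 0.226, and without Dnmt1 KO replicate 2 it passed with a log2 difference of 1.06. With the R1 set in place of the main libraries Mir881 and Mir470 were called, with log2 differences of 2.04 and 1.04.

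By day 3 all 7 genes stood well above the controls, a contrast on which they were chosen. The summed level was 771 ± 52.9 RPM (SD, n = 3) in Dnmt1 KO against 93.0 ± 9.77 RPM in control libraries. Mir871, the most abundant of the cluster, read 39.8, 45.93 and 42.01 RPM in controls and 288.5, 376.6 and 379.9 RPM in Dnmt1 KO libraries. Mir470, the second, read 22.59, 33.06 and 34.73 RPM in controls and 178.1, 254.1 and 233.7 RPM in Dnmt1 KO libraries. For both genes the lowest Dnmt1 KO library was replicate 1, the one that stood apart, and it was still far above every control.

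Mir881 read 7.171, 8.004 and 5.321 RPM in day 3 controls and 124.8, 72.97 and 62.29 RPM in Dnmt1 KO libraries. Here replicate 1 was the highest of its group. Mir465, the gene at the start of the cluster in the direction of transcription, read 1.793, 0.696 and 0.2801 RPM in controls, from 1 to 5 reads, and 17.51, 14.19 and 11.64 RPM in Dnmt1 KO libraries. The 7 folds of the mean RPM ran from 7.10 for Mir743b to 15.7 for Mir465, with a median of 8.18. The fitted log2 differences, on the scale of log2(RPM + 1), ran from 2.44 to 3.45 with a median of 2.96, against a median of -0.02 over all features. Groups did not overlap for 7 of 7 genes, and 12.9% of all features and 37.1% of miRNA features had all Dnmt1 KO libraries above all controls. Without Dnmt1 KO replicate 1 the median log2 difference was 2.89.

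**Figure D1:**
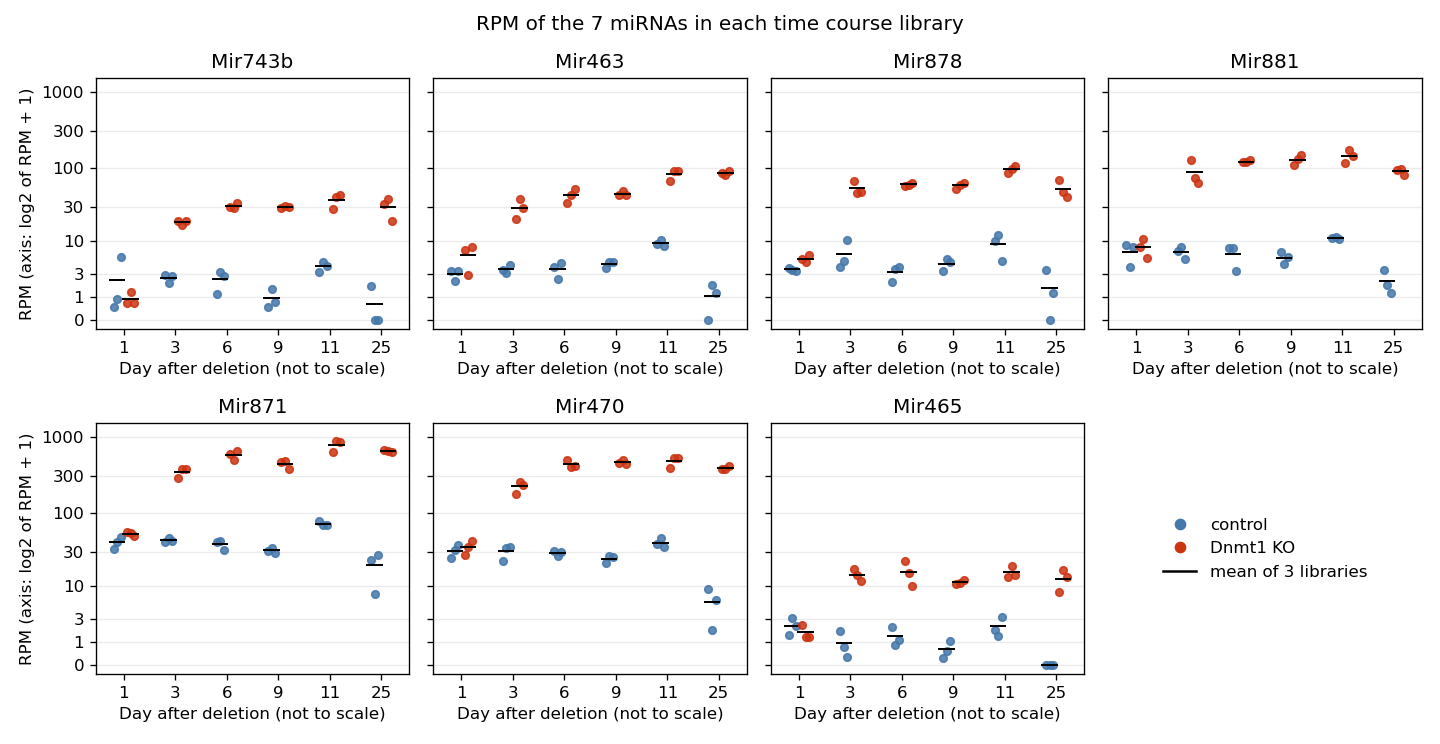
RPM of each of the 7 miRNAs (axis in log2 of RPM + 1, labelled in RPM) against the day after deletion, with 1 point per library, control in blue, Dnmt1 KO in red and the mean of 3 libraries as a black line. At day 1 the colours lie close together, though apart for Mir871 and Mir878, and from day 3 on every red point of each gene lies above its blue points. Control points of day 25 rest on 0 to 2 reads for 5 of the genes.

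At day 6 every Dnmt1 KO library held more Mir871, Mir470 and Mir743b than any Dnmt1 KO library of day 3, while the libraries of the other genes overlapped between these days. This difference between days was not tested. Mir871 read 39.98, 42.1 and 31.16 RPM in controls and 592.9, 487.5 and 641.8 RPM in Dnmt1 KO libraries. Mir470 read 30.52, 26.41 and 29.46 RPM in controls and 497.3, 395.5 and 409.9 RPM in Dnmt1 KO libraries. Mir881 read 7.934, 7.842 and 3.4 RPM in controls and 117.0, 117.0 and 125.8 RPM in Dnmt1 KO libraries. None of these groups overlapped, and the Dnmt1 KO libraries of Mir881 lay close together.

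The limma test called 7 of 7 genes higher at day 6, where 13.7% of all features and 33.3% of miRNA features were. Fold differences of the mean RPM ran from 11.5 to 18.8 with a median of 15.1. Fitted log2 differences were highest for Mir881 (4.01 ± 0.28, SE, adjusted p = 3.75e-15) and lowest for Mir465 (2.73 ± 0.34). Mir465 was also the gene with the fewest reads, 29 to 66 in each Dnmt1 KO library. The genes were named with the results of all days known, so these counts describe the size of the difference beside the spread between libraries and are no independent evidence for the choice. Moreover, Mir871, Mir470 and Mir881 reached the filter of 10 RPM in 3 libraries among the controls alone, whereas Mir743b, Mir463, Mir878 and Mir465 passed it through Dnmt1 KO libraries, which fixed the direction of their difference.

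At day 9 the differences remained, with Mir470 the most abundant gene in Dnmt1 KO libraries by RPKM and Mir871 the second. Mir470 read 21.04, 26.11 and 25.07 RPM in controls and 451.0, 492.9 and 433.9 RPM in Dnmt1 KO libraries. Mir871 read 30.95, 33.87 and 29.07 RPM in controls and 459.6, 484.0 and 373.8 RPM in Dnmt1 KO libraries, overlapping with Mir470 there. All 7 genes were called higher, against 12.3% of all features and 40.5% of miRNA features. Only Mir871, Mir470 and Mir881 among them had passed the filter on controls alone. Fitted log2 differences ran from 3.09 to 4.41 with a median of 3.88. Mir743b had the highest fold of the mean RPM, 31.9, from 2 to 9 reads per control library and 179 to 191 reads per Dnmt1 KO library.

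At day 11 the summed level in Dnmt1 KO libraries reached its highest mean of the time course, 1637 ± 268 RPM (SD, n = 3), and controls were also at their highest, 145.3 ± 10.5 RPM. Mir871 read 76.48, 68.69 and 67.56 RPM in controls and 635.1, 881.2 and 851.9 RPM in Dnmt1 KO libraries. Mir463 read 8.887, 10.26 and 8.239 RPM in controls and 65.25, 89.23 and 89.02 RPM in Dnmt1 KO libraries. Replicate 1 was the lowest Dnmt1 KO library for both, and for each of the other genes. The test called 7 of 7 genes higher, against 6.27% of all features and 31.6% of miRNA features. Among them the filter left the direction open only for Mir871, Mir470 and Mir881. Folds of the mean RPM ran from 7.06 to 12.9.

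The size of the Dnmt1 KO effect did not change detectably between day 6 and day 11. The interaction test called 0 of 7 genes, also at an unadjusted p under 0.05. Of all 2582 features 116 (4.49%) were called higher at day 11 and 102 lower. Of miRNA features 16.5% were called higher. The 7 differences of log2 difference ran from -0.37 to -0.07 with standard errors of 0.32 to 0.54, beside a median of -0.13 over all features.

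At day 25 the summed level in Dnmt1 KO libraries was 1306 ± 28.7 RPM (SD, n = 3), within the range of the means of days 6 to 11, whereas that of the controls was 30.5 RPM, below every earlier mean. Mir871 read 23.31, 7.677 and 26.98 RPM in controls, from 13, 4 and 22 reads, and 673.6, 641.7 and 627.3 RPM in Dnmt1 KO libraries. Mir470 read 8.964, 1.919 and 6.131 RPM in controls, from 5, 1 and 5 reads, and 377.8, 380.4 and 413.1 RPM in Dnmt1 KO libraries. The folds of the mean RPM were 33.5 for Mir871 and 68.8 for Mir470, whose control value rests on 11 reads in all.

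The other 5 genes had 0 to 2 reads per control library at day 25, at or below the limit of 3 reads, which is a mean of 4.94 RPM in these shallow libraries. Against that limit Mir463 was at least 17.1-fold higher in Dnmt1 KO libraries, Mir881 at least 18.2-fold, Mir878 at least 10.4-fold, Mir743b at least 6.04-fold and Mir465 at least 2.56-fold. All 7 genes were called higher, where 18.0% of all features and 32.0% of miRNA features were. Here too the filter left the direction open only for Mir871, Mir470 and Mir881. The fitted log2 differences ran from 3.69 to 6.13, and for the 5 genes at the limit of 3 reads they depend on the pseudocount of 1 RPM.

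**Figure D2:**
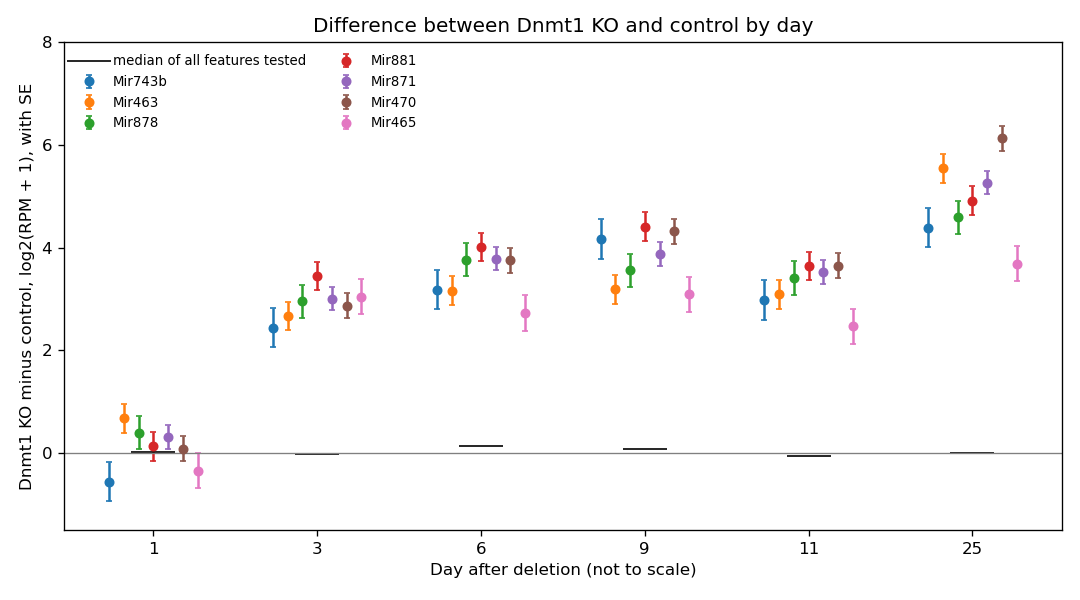
Fitted difference between Dnmt1 KO and control on the scale of log2(RPM + 1) with its standard error, for each of the 7 miRNAs, against the day after deletion, with the median of all 2582 features as a black bar. The 7 genes lie around 0 at day 1, between 2.44 and 3.45 at day 3 and between 3.69 and 6.13 at day 25, where the controls of 5 genes had at most 2 reads per library.

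The Dnmt1 KO effect was larger at day 25 than at day 11 for 4 of 7 genes by the interaction test, against 10.7% of all features and 21.6% of miRNA features. The change of the log2 difference was 2.47 ± 0.35 (SE, adjusted p = 4.64e-07) for Mir470, 2.46 ± 0.40 (adjusted p = 7.55e-06) for Mir463, 1.74 ± 0.32 (adjusted p = 8.19e-05) for Mir871 and 1.29 ± 0.39 (adjusted p = 0.0163) for Mir881. The other three had changes of 1.18 to 1.41 with adjusted p of 0.059 to 0.0691, and with a pseudocount of 0.5 RPM or with miRNA features alone all 7 were called. Mir463, Mir743b, Mir878 and Mir465 had passed the filter through Dnmt1 KO libraries, whose values enter this test. Calls of these genes are therefore no independent evidence. Mir463 and Mir881 had at most 2 reads in any day 25 control. The mean RPM in Dnmt1 KO libraries was lower at day 25 than at day 11 for every gene but Mir463 (81.2 and 84.6 RPM), and the control mean was lower for all 7. Mir881 was not called with a pseudocount of 5 RPM, with no filter, with voom, without Dnmt1 KO replicate 1 of day 11 or without control replicate 3 of day 25.

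Over the controls alone, 3 of 7 genes were higher at day 11 than at day 1, against 16.7% of all features and 10.3% of miRNA features. These were Mir463 (log2 difference 1.33 ± 0.28, SE, adjusted p = 0.000196), Mir871 (0.82 ± 0.23, adjusted p = 0.0044) and Mir878 (1.02 ± 0.32, adjusted p = 0.0116). Mir871 read 31.98 to 47.1 RPM in day 1 controls and 67.56 to 76.48 RPM in day 11 controls, without overlap. Mir878 was no longer called without control replicate 1 or replicate 2 of day 11, with log2 differences of 0.92 and 0.80. Without control replicate 3 of day 1 Mir743b was called as well, and without control replicate 1 of day 1 Mir881 was. In the R1 set, where day 11 libraries titled WT stood for controls, Mir871, Mir881 and Mir470 were the genes called. With no filter on the main libraries Mir463 alone was called.

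From day 1 to day 25 the controls were called lower for 7 of 7 genes, against 28.1% of all features and 55.3% of miRNA features. For Mir470 the mean fell from 30.7 to 5.67 RPM, 5.41-fold (log2 difference -2.50 ± 0.24, SE, adjusted p = 1.96e-11), and for Mir871 from 39.9 to 19.3 RPM, 2.07-fold (-1.29 ± 0.23, adjusted p = 9.18e-06). The depth of day 25 carries no more than that. Mir743b, Mir463, Mir878 and Mir465 had 2.28 to 3.62 RPM at day 1, under the day 25 limit of 4.94 RPM, and Mir881 at 6.92 RPM was above it 1.40-fold. Only 3 of the 7 were called with voom on the reads, namely Mir871, Mir470 and Mir465. Mir743b was not called without control replicate 3 of day 1 or without control replicate 2 or 3 of day 25, and Mir878 was not called without control replicate 2 of day 25.

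The 7 genes moved together over the time course, as their choice would give. Pearson's r between pairs of the 7 over the 36 libraries, on log2(RPM + 1), was 0.917 to 0.982 with a median of 0.954. After subtraction of each group's mean it was -0.464 to 0.789 with a median of 0.0141, so that pairs of genes varied in how they deviated together within groups. At day 11, for example, replicate 1 was the lowest Dnmt1 KO library for all 7. These libraries share the same 6 days and 2 genotypes, and r is a description.

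Markers of other cell types moved with genotype on several days, day 1 included. The summed RPM of a fibroblast or feeder list (Mir143, Mir145, Mir199a-1, Mir199a-2, Mir214 and Mir21, of which Mir199a-1 was at 0) was 34070 to 44690 in Dnmt1 KO and 22850 to 23330 in control libraries at day 3, 23730 to 26050 and 14590 to 15760 at day 6, 42350 to 48040 and 21900 to 29200 at day 9, and 22800 to 25850 and 18580 to 20500 at day 11. At day 25 it was lower in Dnmt1 KO (6923 to 8020) than in control libraries (8945 to 10080). At day 1 it overlapped between the genotypes, with 19150 to 22030 in Dnmt1 KO and 18770 to 20980 in control libraries. A blood list (Mir142, Mir223, Mir144 and Mir451) summed to 1464 to 3227 RPM in Dnmt1 KO and 1420 to 1579 RPM in control libraries at day 3, 2001 to 2391 and 1338 to 1622 at day 6, 1842 to 2130 and 727 to 839 at day 9, and 1615 to 2080 and 577 to 657 at day 11. It too was lower in Dnmt1 KO libraries at day 25, with 439 to 493 against 638 to 673 RPM. At day 1 the blood list was also lower in Dnmt1 KO libraries, with 1478 to 1898 against 2028 to 2396 RPM.

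A spermatogenic list of the miR-34 and miR-449 families (5 miRNAs) summed to 2397 to 2952 RPM in Dnmt1 KO and 1585 to 1627 RPM in control libraries at day 3, 1521 to 1914 and 1207 to 1333 at day 6, 2569 to 2684 and 1418 to 1864 at day 9, and 1695 to 1883 and 1307 to 1449 at day 11. It overlapped between the genotypes at day 25, with 1031 to 1161 and 1127 to 1409 RPM. At day 1 it was higher in Dnmt1 KO libraries without overlap, with 1620 to 1652 against 1403 to 1469 RPM. In the PGC libraries without suffix the same list summed to 62.3 to 643 RPM, below every ESC library of the time course. Neuronal markers summed to at most 11.4 RPM and muscle markers to at most 0.678 RPM in any ESC library of the time course. The part of other cells in the differences of the cluster was not tested on any day.

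AGO2 immunoprecipitates held the cluster at a low level in control cells and at a high one in Dnmt1 KO cells, also a contrast on which the genes were chosen. The summed level was 57.4 ± 9.92 RPM (SD, n = 4) in controls and 2324 ± 561 RPM in Dnmt1 KO libraries. Mir871 read 26.91, 21.31, 21.88 and 17.98 RPM in controls and 764.5, 678.9, 857.3 and 1128 RPM in Dnmt1 KO libraries. Mir470 read 20.94, 22.53, 16.35 and 14.79 RPM in controls and 384.4, 460.1, 883.7 and 840.3 RPM in Dnmt1 KO libraries. For Mir470 libraries 1 and 2 stood apart from libraries 3 and 4, and all 4 were above every control. The genotypes are those of the titles, and by the genotype tags the direction would be the opposite.

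Mir463 read 6.154, 7.045, 3.882 and 3.658 RPM in AGO2 controls and 215.2, 238.1, 384.2 and 273.9 RPM in Dnmt1 KO libraries. Mir743b read 1.653, 1.044, 0.9705 and 1.377 RPM in controls, from 12 to 36 reads, and 81.57, 76.58, 87.45 and 95.75 RPM in Dnmt1 KO libraries. Folds of the mean RPM ran from 34.4 for Mir470 to 67.7 for Mir743b, with a median of 43.4. The groups did not overlap for 7 of 7 genes, and 31.6% of the 456 features that passed the filter in these libraries and 36.7% of the 264 miRNA features among them had every Dnmt1 KO library above every control. Fitted log2 differences ran from 3.95 to 5.27 with a median of 4.96, beside a median of 0.10 over all features. The fibroblast or feeder list summed to 14760 to 29770 RPM in Dnmt1 KO and 6193 to 14780 RPM in control immunoprecipitates. The blood list summed to 3152 to 6179 and 1105 to 1475 RPM and the spermatogenic list to 1610 to 2383 and 788 to 1457 RPM, both without overlap, and the part of other cells in these values was not tested.

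Set against total small RNA of day 9, 6 of the 7 genes took a larger mean share of miRNA reads in AGO2 libraries of Dnmt1 KO cells, and all 7 took a smaller one in those of control cells. The comparison has no test, because the kinds of library were prepared apart and 97.9% to 99.1% of AGO2 reads but 53.4% to 61.5% of time course reads of days 1 to 11 fell on miRNAs. In Dnmt1 KO cells the median log2 ratio of the shares was 0.80 over the 7 genes, against -0.04 over 339 miRNAs. In control cells it was -0.82, against -0.68 over 312 miRNAs, and there Mir743b and Mir465 rested on 15 and 10 reads at day 9.

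Members differed in this ratio. In Dnmt1 KO cells Mir463 took 283 ± 76.9 (SD, n = 4) on the scale of RPM of miRNA reads in AGO2 libraries and 75.2 ± 7.12 (n = 3) in total RNA, a log2 ratio of 1.91 at the 95.9th percentile of the 339 miRNAs. Mir470 took 655 ± 262 in AGO2 libraries and 772 ± 67.6 in total RNA, a log2 ratio of -0.24, with overlapping libraries. Mir871 took 874 ± 199 and 738 ± 109 with a log2 ratio of 0.24, also overlapping. Mir878, Mir465 and Mir743b had log2 ratios of 1.00, 0.96 and 0.80, and Mir881 had 0.16. By RPKM Mir463 had rank 3 of the 7 in AGO2 libraries of Dnmt1 KO cells and rank 5 in their total RNA of day 9. On RPM in place of the share of miRNA reads, the median log2 ratio was 1.52 in Dnmt1 KO and -0.05 in control cells.

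**Figure D3:**
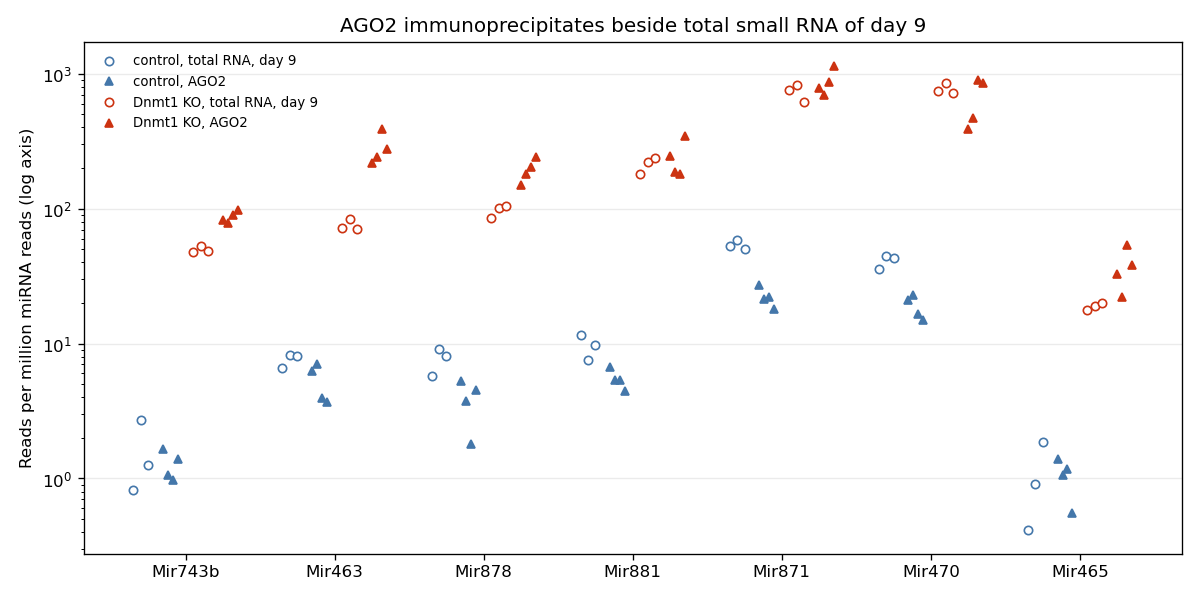
RPM of miRNA reads (log axis) of each of the 7 miRNAs in total small RNA of day 9 (open circles, 3 libraries) and in AGO2 immunoprecipitates (filled triangles, 4 libraries), control in blue and Dnmt1 KO in red. Red triangles of Mir463 lie above its red circles, those of Mir470 and Mir871 overlap with the circles, and blue triangles of Mir871 and Mir470 lie below the blue circles.

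The libraries labelled none held too few reads to place the cluster. The control one had 2 reads on the 7 genes, both on Mir871, and the Dnmt1 KO one had 7 reads, of which 3 fell on Mir871 and 2 on Mir470. With 3 reads worth 52.5 RPM in the first and 305 RPM in the second, the level of any single gene in the AGO2 libraries of controls was not detectable there.

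The 4 PGC libraries without suffix held the cluster at higher levels than any ESC library. The summed level was 16155 RPM in E13.5 females, 6048 RPM in E13.5 males, 10480 RPM in E14.5 females and 11784 RPM in E14.5 males, or 3.78%, 1.09%, 2.85% and 2.94% of miRNA reads. With 1 library per stage and sex there is no replicate check, and intervals below are exact Poisson intervals (95%) that cover counting error only. Mir871 read 7931 RPM (7827 to 8036) in E13.5 females, 2465 RPM (2409 to 2522) in E13.5 males, 4639 RPM (4567 to 4711) in E14.5 females and 5283 RPM (5176 to 5392) in E14.5 males. Its E13.5 female value was the highest and its E13.5 male value the lowest, and both held for each gene but Mir470, whose E13.5 male value alone was in that place. Mir470 read 3384 RPM (3316 to 3453), 1731 RPM (1684 to 1779), 3351 RPM (3290 to 3412) and 3762 RPM (3672 to 3855) in the same order, with the E14.5 male highest.

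In E13.5 females Mir463 read 1625 RPM, Mir878 1267 RPM, Mir743b 990 RPM, Mir881 758 RPM and Mir465 200 RPM. Against the mean of Dnmt1 KO ESCs at day 11, the E13.5 female library was 26.8-fold higher for Mir743b, 13.4-fold for Mir878, 12.9-fold for Mir465 and 5.30-fold for Mir881. The E13.5 male library was 2.44-fold higher for Mir881 and 8.71-fold for Mir463.

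By RPKM Mir871 was first, Mir470 second and Mir465 last in each of the 4 PGC libraries, as in Dnmt1 KO cells at days 3, 6, 11 and 25. The smaller genes differed in their share of the summed RPM. Mir743b took 3.32% to 6.13% of it in PGCs and 2.25% in Dnmt1 KO cells of day 11, and Mir881 took 4.69% to 5.77% and 8.73%. These shares of single PGC libraries have no replicate check. Mir202, taken here as a marker of Sertoli cells, was at up to 154 RPM in PGC libraries. In ESC libraries of the time course Mir202 was at most 1.79 RPM. Whether its reads came from Sertoli cells was not tested in libraries of either sex. The part of gonadal soma in the PGC values was not tested either. The sum of the fibroblast or feeder list was 1735 to 2605 RPM in PGCs, below that of every ESC library of the time course.

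In the R1 set the library titled E14.5 male held 5958 RPM of the 7 genes, near the 6048 RPM of the E13.5 male that it resembled over all features. The R1 library of E13.5 females had 16 reads on the 7 genes and that of E13.5 males 9 reads, at 140 and 149 RPM. Those values are far below the 16155 and 6048 RPM of their namesakes, and in the first of them 11.8% of reads fell on miRNAs and in the second a smaller share still. As a share of miRNA reads the 7 genes took 0.118% in the first, below its namesake, and 1.8% in the second, above the 1.09% of its namesake but from 9 reads.

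**Figure D4:**
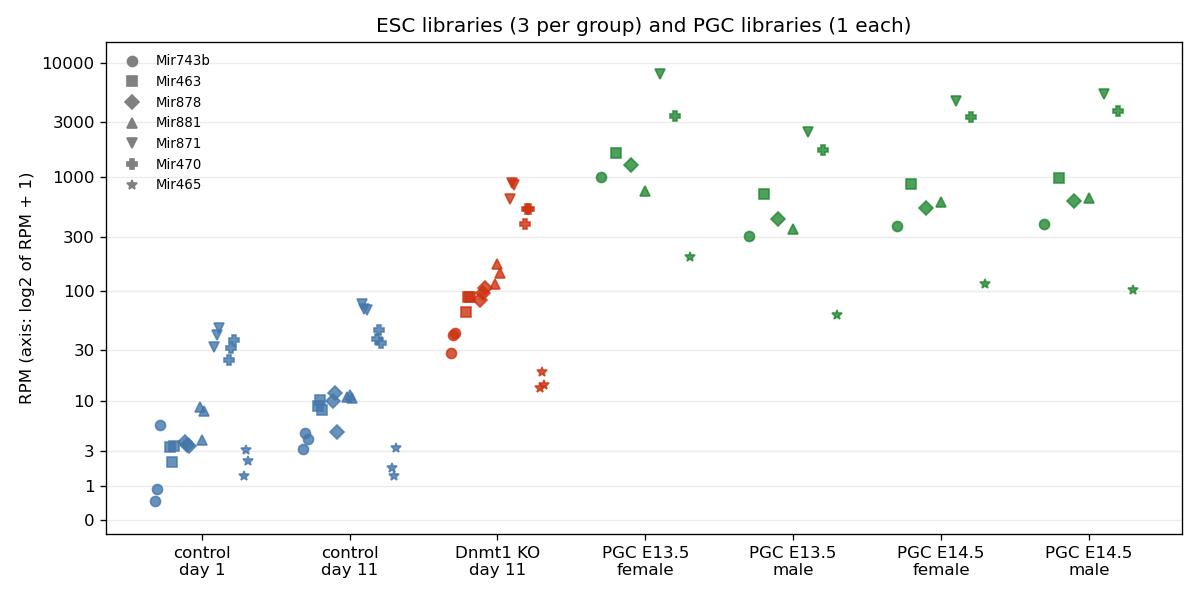
RPM (axis in log2 of RPM + 1, labelled in RPM) of the 7 miRNAs, each with its own symbol, in control ESCs of days 1 and 11, Dnmt1 KO ESCs of day 11 (3 libraries each) and the 4 PGC libraries without suffix. Every PGC value of a gene lies above all of its ESC values, and Mir871 leads in each PGC library, with 2465 to 7931 RPM.

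Other miRNAs of the same window were measured as well. Of the 11, Mir471 and Mir741 passed the filter of 10 RPM in 3 libraries, and Mir743, Mir742, Mir883a, Mir883b and Mir880 did not. Mir471, which lies 46.464 kb from Mir465, had 0 to 3 reads in each control library of days 1 to 9 and 39 to 47 reads in each Dnmt1 KO library of day 9. Mir741, 42.25 kb from Mir465, had 1 to 4 reads in day 9 controls and 65 to 80 reads in Dnmt1 KO libraries. Neither gene was among the names chosen.

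Both passed the filter through Dnmt1 KO libraries alone, which fixed the direction, so their differences are given without a test. Mir741 averaged 0.544 RPM in controls and 0.869 RPM in Dnmt1 KO libraries at day 1, 1.34 and 11.5 RPM at day 3, and 0.443 and 14.2 RPM at day 6. Mir471 averaged 0.162 and 1.39 RPM at day 1, 0.396 and 4.77 RPM at day 3, and 0 and 6.26 RPM at day 6. At day 25 the lowest Dnmt1 KO library of Mir471 (1.895 RPM) and its highest control (1.793 RPM) were each 1 read. The remaining neighbours are named here after their values were seen. In AGO2 libraries Mir883a, Mir471, Mir741 and Mir880 passed the filter, and Mir883a averaged 0.197 ± 0.0273 RPM (SD, n = 4) in controls and 17.0 ± 3.79 RPM in Dnmt1 KO libraries. In E13.5 female PGCs Mir741 read 330 RPM, Mir883a 199 RPM, Mir743 76.8 RPM, Mir471 59.7 RPM, Mir883b 53.3 RPM, Mir880 12.1 RPM and Mir742 6.04 RPM. By RPKM Mir741 lay above Mir465 in each of the 4 PGC libraries without suffix.

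**Figure D5:**
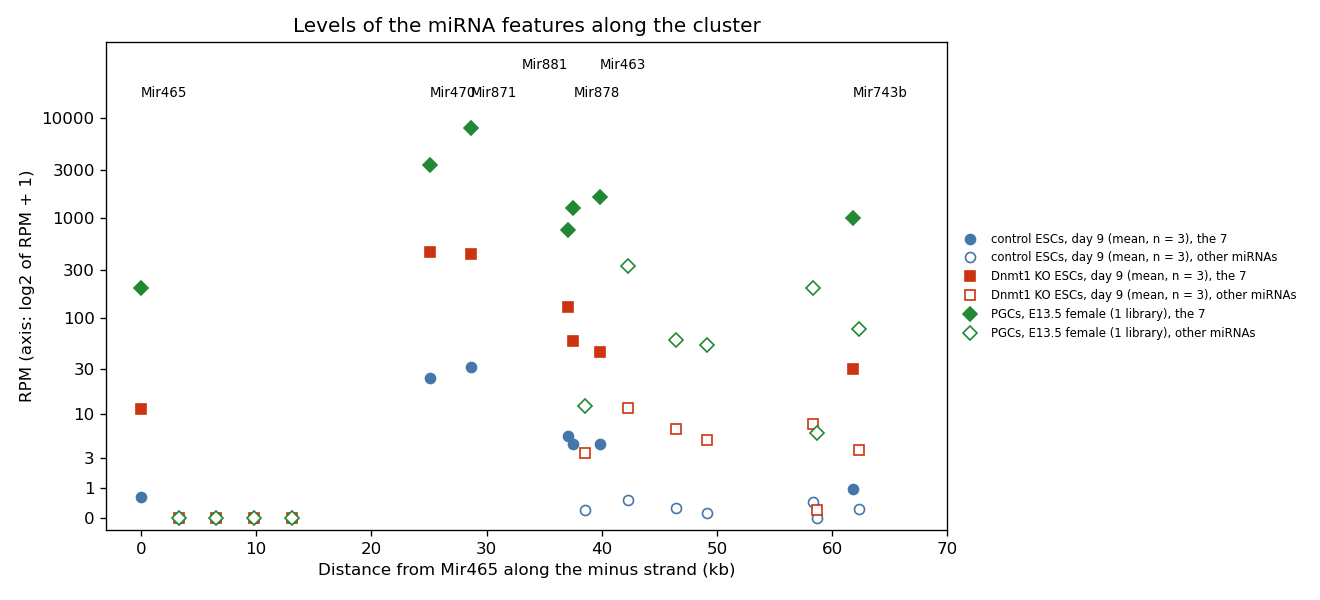
RPM (axis in log2 of RPM + 1, labelled in RPM) of the 18 miRNA features against their distance from Mir465 in kb, in control ESCs and Dnmt1 KO ESCs of day 9 (means of 3 libraries) and in the E13.5 female PGC library, with the 7 genes filled and the other miRNAs open. In each kind of cell the highest values lie at Mir470 and Mir871. The 4 features nearest to Mir465 are at 0, and their mature sequences have 2 or 5 exact copies in the genome.

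Other miRNAs of the chromosome moved in both directions at days 6 to 11 and more often lower at day 25. Among the 29 other X-linked miRNA features that passed the filter, 8 were called higher and 10 lower at day 6, 8 and 8 at day 9, 5 and 3 at day 11, and 2 and 15 at day 25. The median log2 difference of these 29 at day 25 was -0.56, against -0.2 over all miRNA features that passed. Over all features 9.33% were called lower at day 6, 6.12% at day 9, 2.36% at day 11 and 17.0% at day 25. The highest log2 difference of the 29 on any of these days was 1.65, below the lowest of the 7 genes, 2.47. The 7 genes were chosen by their response to loss of DNMT1 and the 29 were not, so this contrast comes with the choice. The 3 with the largest mean change over days 6, 9 and 11 were Mir20b (-1.30), AL714021.1 and Mir106a (-1.09). Mir20b and Mir106a belong to another miRNA cluster of the X chromosome and were called lower on each of these days, and AL714021.1 was called higher at day 11 alone (1.65 ± 0.32, SE, adjusted p = 0.000207).

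Outside the span, the 5 features whose log2(RPM + 1) followed the mean of the 7 most closely over the 36 libraries were all miRNAs of chromosome 12. These were Mir494 (r = 0.915), Mir376b (0.912), Mir381 (0.909), AC121784.4 (0.909) and Mir154 (0.905). Mir381 was the most abundant of them. At day 3 Mir381 averaged 156.5 RPM in controls and 253 RPM in Dnmt1 KO libraries, when Mir871 averaged 42.6 and 348 RPM. At day 6 Mir381 averaged 64.3 and 1506 RPM. From day 11 to day 25 Mir381 went from 3119 to 4743 RPM in Dnmt1 KO libraries and Mir871 from 789 to 648 RPM. Each r was computed over libraries that share days, genotypes and depth, and is a description.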

How the data were processed

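Small RNA was sequenced in mouse ESCs and PGCs. Per the submitters' processing notes, the authors trimmed reads with Trim Galore 0.3.5, mapped them with Bowtie2 2.2.9 to NCBIM37 and deposited 1 table of RPKM values for 32101 features in 83 libraries. Settings for reads with several matches are not given in the sources used here. Features were matched by position to GENCODE vM1. RPM was RPKM multiplied by feature length in kb, and whole reads were read back from the RPKM steps (tolerance 5%, met by all low values). Because the deposited RPKM values are not counts, limma 3.58.1 (R 4.3.3, trend) was run on log2(RPM + 1) after TMM scaling (factors 0.866 to 1.12), for features with at least 10 RPM in at least 3 libraries. One model over the 36 time course libraries without suffix held a mean for each combination of day and genotype, and a separate model held the 8 AGO2 libraries. P-values were adjusted by Benjamini-Hochberg over all features of a comparison, with calls at 0.05. Self-tests used simulated data. The 7 genes and all lists were chosen with earlier results of these data known. All 7 genes are named, as are neighbours within 100 kb that passed the filter, the 5 features most alike and the 3 X-linked miRNAs with the largest mean change. Alternatives were pseudocounts of 0.5 and 5 RPM, no filter, miRNA features alone, library totals, median-ratio factors, voom on the reads, each day alone, the R1 set, a replicate block and leaving out each library. Mature sequences were matched with Python 3.11.15.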

Additional observations from a re-analysis of the deposited data

Results flagged for a closer look

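For 4 genes a difference between days met the criterion of a tested difference between the Dnmt1 KO effects of day 25 and day 11 (limma interaction test, adjusted p under 0.05). On the scale of log2(RPM + 1) the effect was larger at day 25 by 2.46 for Mir463, 1.29 for Mir881, 1.74 for Mir871 and 2.47 for Mir470. Control libraries of day 25 had 0 to 1 reads of Mir463, 1 to 2 of Mir881, 1 to 5 of Mir470 and 4 to 22 of Mir871. The values of Mir463 and Mir881 therefore rest on controls at or below 2 reads and depend on the pseudocount. Mir463 had also passed the filter through Dnmt1 KO libraries, whose values enter this test. All 6 libraries of day 25 held 521066 to 815523 reads, fewer than any library of days 1 to 11, and day and depth cannot be told apart there.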

How the results depend on the processing

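Of 1274 values of single genes under other settings, 1220 kept direction and side of the threshold, 22 lost the call, 22 gained it, 10 without a test moved by more than the spread and none reversed. Log2 differences of Dnmt1 KO over control at days 3 to 25 and in AGO2 libraries stayed between 1.57 and 6.49 over all 656 of their values. All 7 genes were called at days 6, 9, 11 and 25 in every alternative that could test them. For Mir743b, Mir463, Mir878 and Mir465 the filter had fixed the direction. Each day fitted alone tested 6 at days 6 and 25, since Mir465 did not pass the filter there. At day 1 the R1 set called 2 genes instead of 0, and leaving out a library gave 0 to 1. The day 3 median was 2.36 with a pseudocount of 5 RPM instead of 2.96, and 2.71 to 2.99 without 1 library. Controls of day 11 against day 1 gave 1 gene with no filter, where 24119 features were tested, instead of 3, and 2 to 4 without 1 library. Controls of day 25 against day 1 gave 3 with voom instead of 7, and 5 to 7 without 1 library. The change from day 11 to day 25 gave 7 with miRNA features alone, where fewer features were tested, and 7 with a pseudocount of 0.5 RPM instead of 4, and 3 to 6 without 1 library. The AGO2 median was 5.21 with library totals, where all features shifted to a median of 0.34, instead of 4.96, and 4.67 to 5.05 without 1 library, the lowest without Dnmt1 KO library 4. It was 4.96 with libraries 1 and 2, and 3 and 4, averaged, a setting chosen after seeing the data. The ratio of AGO2 to day 9 in Dnmt1 KO cells was 1.52 on RPM instead of 0.80, also chosen after seeing the data. The background moved too: over all 2582 features, calls in either direction at days 1, 6, 9, 11 and 25 were 98, 595, 475, 223 and 904, and under settings other than miRNA features alone 63 to 162, 304 to 780, 222 to 904, 138 to 422 and 390 to 1664. With the 291 miRNA features alone they were 16, 182, 177, 123 and 214, a larger share of those tested. Where no construction is named, the cause was not tested. Replicate numbers did not pair the libraries: deviations of same-numbered libraries correlated at -0.0661 to 0.0468 over 18 pairs, with the best match in 4. With the number as a replicate block 0, 7, 7, 7, 7, 3, 7, 0 and 4 genes were called in the order of the tests above, with medians of 2.96 at day 3 and 4.96 in AGO2 libraries, so that no count changed. Depth limits the controls of day 25, where 3 reads are a mean of 4.94 RPM.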
